A study of Mus musculus with 6 samples.

Results

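The Hox genes of the epididymal fat pad are described here across 6 arrays. They were chosen by symbol: a gene counted as a member if a row of the platform named it alone and its symbol was Hoxa, Hoxb, Hoxc or Hoxd followed by a number. Where a gene had several such rows, the row with the highest mean over the 6 arrays stood for it. Of the 39 Hox genes in the RefSeq mouse gene table, 36 had a row of their own, out of 22180 genes on the array with such a row. They were 9 genes of the Hoxa, 10 of the Hoxb, 9 of the Hoxc and 8 of the Hoxd cluster. Hoxa11 and Hoxd4 were named only on rows shared with another gene and were not counted as members.

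The arrays came from male C57BL/6 mice of 8 months, all fed a high-fat diet for 21 weeks, and measured total RNA of the fat pad beside the epididymis (eWAT). There were 3 wild-type mice (WT 1 to WT 3) and 3 transgenic mice with adipose-specific Blnc1, a long noncoding RNA (Tg 1 to Tg 3). The labels call the replicates biological and each array was taken as 1 mouse. The sources used here do not name the promoter behind the transgene or the number of founder lines.

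Hox genes encode homeodomain transcription factors that give cells of the embryo their position along the head-to-tail axis and in the limbs and genital tract. Within each cluster the genes stand on the chromosome in the order of their numbers, and low-numbered (anterior) genes are switched on earlier and closer to the head than high-numbered (posterior) genes. Fat cells and their progenitors keep a Hox pattern into adult life that differs between depots. In mice, Hoxa5 and Hoxc8 are known as genes of intra-abdominal fat, and Hoxc9 and the non-Hox genes Tbx15, Shox2 and En1 as genes of subcutaneous fat. Only 1 depot was measured here, so depots were not compared.

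The clusters also hold microRNA genes, and their mature sequences are shown because miR-196a is known to act on Hoxb8 and Hoxc8 transcripts and the row of its gene Mir196a-1 is described further on. The sequences are those of RefSeq, 5′ to 3′, with the seed (bases 2 to 8) in capitals. The genes of miR-196 lie next to the paralogs 9 and 10, and those of miR-10 near the paralogs 4.
miR-196a-5p: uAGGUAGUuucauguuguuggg
miR-196b-5p: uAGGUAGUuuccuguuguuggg
miR-10a-5p: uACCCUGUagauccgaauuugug
miR-10b-5p: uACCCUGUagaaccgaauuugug
miR-615-3p: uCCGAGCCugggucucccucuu
Counted from the 5′ end, miR-196b-5p differed from miR-196a-5p by A12C alone and miR-10b-5p from miR-10a-5p by U12A alone. Each pair shares its seed, and miR-615-3p, from within Hoxc5, has a seed of its own.

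The stretches before the gene starts were read as well, since many Hox promoters are known as CpG islands under Polycomb control. A RefSeq table of GRCm38.p6 held 22 windows of 300 bases (250 before and 50 after a start) for 20 of the 36 genes. Their median GC content was 58.7%, against 52.7% over 32841 windows of all genes, and their median number of CG dinucleotides was 17, against 7. At least 17 were found in 31.4% of all windows. The Hox windows were not uniform, with 4 CG in that of Hoxa9 and 45 in that of Hoxa13. The 250 bases before the starts of Hoxd13 and Hoxb8 are shown because results below turn on these genes and they differ in CG (in capitals).
Hoxd13, chr2:74667975-74668224, plus strand: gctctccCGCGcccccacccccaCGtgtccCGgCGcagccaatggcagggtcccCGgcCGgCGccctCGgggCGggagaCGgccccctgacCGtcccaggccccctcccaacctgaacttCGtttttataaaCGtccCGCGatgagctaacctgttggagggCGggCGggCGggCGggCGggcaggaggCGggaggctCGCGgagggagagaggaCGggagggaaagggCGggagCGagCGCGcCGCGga
Hoxb8, chr11:96281655-96281904, plus strand: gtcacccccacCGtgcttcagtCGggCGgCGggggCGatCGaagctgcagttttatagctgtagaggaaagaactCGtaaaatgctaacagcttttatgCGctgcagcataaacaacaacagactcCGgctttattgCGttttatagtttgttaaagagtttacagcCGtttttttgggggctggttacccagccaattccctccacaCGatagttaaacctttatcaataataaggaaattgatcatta
The Hoxd13 stretch held 31 CG at 74.4% GC and the Hoxb8 stretch 12 CG at 44.4% GC. Windows for Hoxc8, Hoxb2, Hoxc12 and Hoxc13 were not used here.

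Some arrays carried transcripts known from the male genital tract, which lies against this fat pad and uses posterior Hox genes itself. A list of 24 measured epididymis genes averaged 4.45 (log2) in Tg 2 and between 1.06 and 1.37 in the other 5 arrays, with Lcn9, an epididymal lipocalin gene, at 9.87 in Tg 2 and at most 1.62 elsewhere. Gpx5, an epididymal peroxidase gene, read 10.77 in Tg 2, 3.22 in Tg 1 and at most 1.20 in the others. WT 2 and WT 3 carried other tract transcripts, chosen after their values were seen. The 8 genes so chosen averaged 6.01, 7.05 and 4.45 in WT 2, WT 3 and Tg 2. In WT 1, Tg 1 and Tg 3 they averaged 2.51 to 2.79. Arrays are called high or low in chosen tract transcripts by these 8 genes. On the epididymis list Tg 1 (1.37) lay above WT 2 and WT 3 (1.18 each). Defb42, an epididymal defensin gene, read 4.37, 5.67 and 5.64 in WT 2, WT 3 and Tg 2 and at most 1.19 in the others, and Pax8, a transcription factor gene of the duct epithelium, read 4.42, 4.77 and 5.19 against at most 2.86. Spink8 and Serpina1f were high only in WT 2 and WT 3, at 6.55 and 8.09 for Spink8 and at 6.58 and 8.09 for Serpina1f. Of the 8, Cnn1 and Ptgs2 were also high only there, with 4.17 and 3.75 in Tg 2, while Actg2 and Cdh1 were highest in Tg 2 (7.62 and 5.07). The arrays high in the chosen transcripts thus did not share a single profile. The white adipocyte list averaged 10.2 to 10.5 in WT and 10.5 to 10.8 in Tg. All 10 of its genes read higher in Tg, 0 past an adjusted p of 0.05 in limma. At an unadjusted p under 0.05 there were 3, where 10.3% of all rows pass (4.43% higher in Tg). Ucp1, the uncoupling protein gene of brown and beige fat, read 4.58, 4.05 and 3.34 in WT and 2.64, 2.34 and 2.35 in Tg, with groups apart (-1.55 ± 0.30, adjusted p 0.326 in limma). The T and B cell list averaged 4.92 to 6.49 in WT and 4.42 to 5.69 in Tg. In whole tissue, fewer cells of a type and less RNA per cell cannot be told apart.

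By the mean over all arrays, genes with signal lay side by side in each cluster. Signals are log2 values whose size also depends on the probes of a row, so the order of levels between genes is not an order of abundance. As a guide to what silent genes read, 1405 rows of olfactory and vomeronasal receptor genes had a median of 0.77 and a 95th percentile of 1.81, and the median of all 41345 rows was 2.67. By that guide 23 of the 36 Hox genes read above the receptor rows' 95th percentile and 13 did not. Above the same line were 25753 of the 41345 rows and 14957 of the 22180 genes with 1 row each, a similar share. In the Hoxa cluster Hoxa2 to Hoxa7 were above and Hoxa9, Hoxa10 and Hoxa13 below. In the Hoxb cluster Hoxb2 to Hoxb9 were above and Hoxb1 and Hoxb13 below. In the Hoxc cluster Hoxc4 to Hoxc10 were above and Hoxc11 to Hoxc13 below, and in the Hoxd cluster only the rows of Hoxd8, Hoxd9 and Hoxd10 were above. A row that names both Hoxd3 and Hoxd4, which the rule leaves out, averaged 3.83 and was above as well, so the dim row of Hoxd3 does not settle its level. All 11 genes of paralog numbers 5 to 8 were above, as were 7 of 10 with numbers 1 to 4 and 5 of 15 with numbers 9 to 13. The nearest to the line were Hoxd9 at 1.95 above it and Hoxa9 at 1.72 below it. Hoxb2 and Hoxc5 passed it through the Tg arrays, as their WT means of 1.78 and 1.74 lay below it. The unbroken run of the Hoxc cluster and the counts that include these genes thus hold for the mean over both groups and not for WT alone. No detection call was used, so the 13 dim genes are called dim and not absent.

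**Figure D1:**
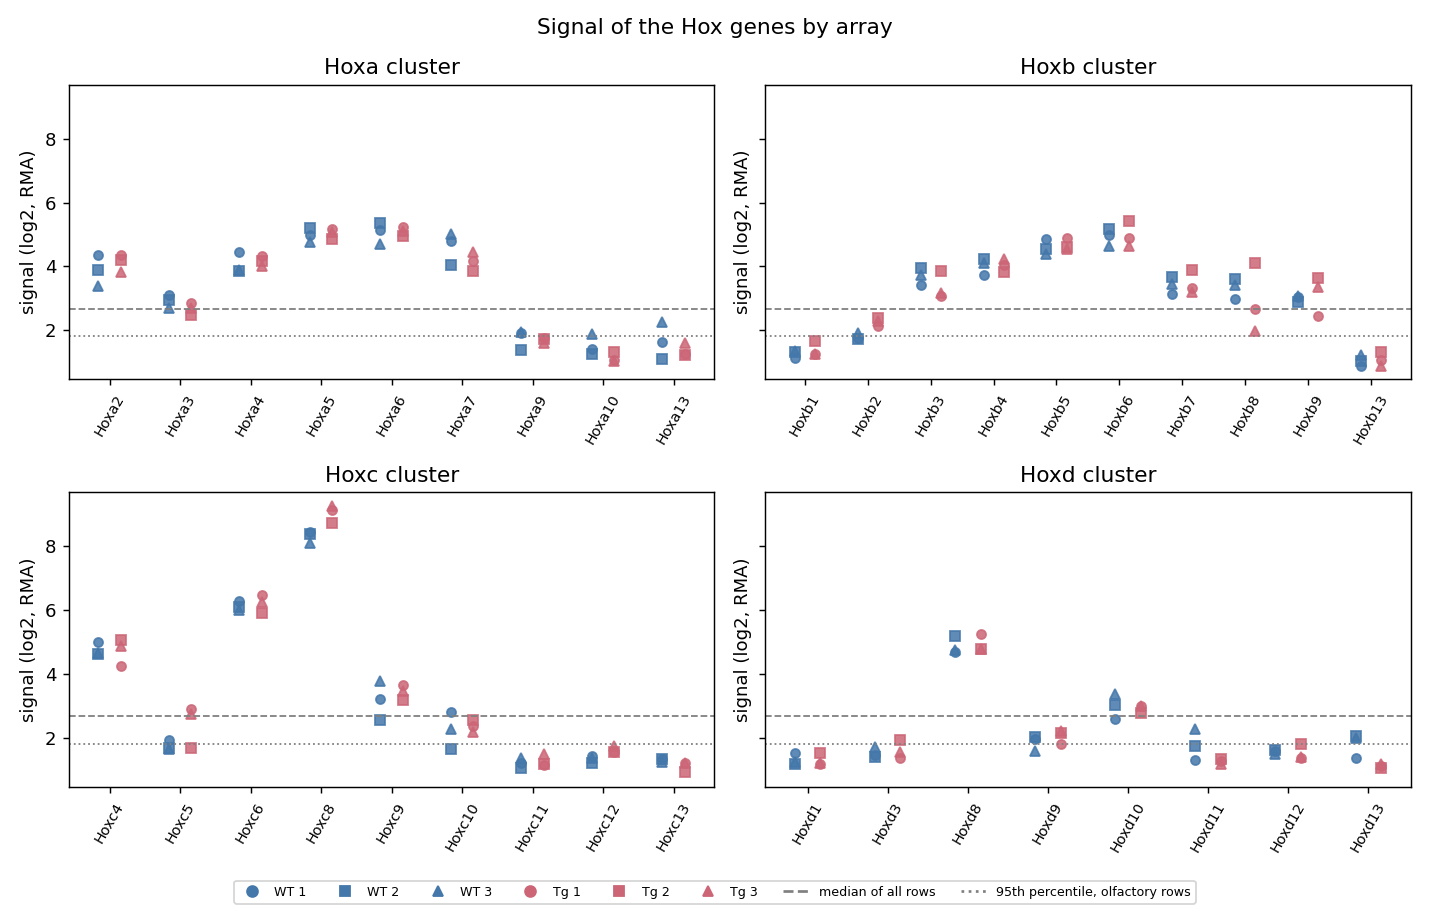
Signal (log2, vertical axis) of the 36 Hox genes in paralog order (horizontal axis), 1 panel per cluster; each point is 1 array, WT in blue and Tg in red, with the marker shape giving the replicate number. The dashed line is the median of all rows (2.67) and the dotted line the 95th percentile of the olfactory and vomeronasal receptor rows (1.81); Hoxa9 to Hoxa13 and Hoxc11 to Hoxc13 lie around or below the dotted line, and Hoxc8 lies between 8.12 and 9.27.

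The brightest and the dimmest row of each cluster are given as landmarks only. In the Hoxc cluster they were Hoxc8, with a mean of 8.68, and Hoxc13, a hair follicle gene, with 1.20. Hoxc6, the next active gene beside Hoxc8, read 6.28, 6.09 and 5.99 in WT and 6.46, 5.92 and 6.25 in Tg. In the Hoxa cluster the highest mean was that of Hoxa6, at 5.13, 5.37 and 4.70 in WT and 5.23, 4.95 and 5.12 in Tg, and the lowest that of Hoxa10 (1.32). Hoxa5, the intra-abdominal fat gene beside it, read 4.99, 5.21 and 4.77 in WT and 5.16, 4.85 and 5.08 in Tg. In all 3 genes the groups overlapped and differed by less than the standard error (SE) of the fit.

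In the Hoxb cluster the row of Hoxb6, a trunk gene, had the highest mean, with 4.99, 5.17 and 4.65 in WT and 4.88, 5.43 and 4.63 in Tg, and that of Hoxb13, a prostate and hindgut gene, the lowest (1.06). Hoxd8 had the highest mean of the Hoxd cluster, with 4.70, 5.17 and 4.76 in WT and 5.26, 4.78 and 4.78 in Tg, and Hoxd1 the lowest (1.30). The groups overlapped in all 4. Among the genes known from subcutaneous fat, Hoxc9 was above the receptor rows, with 3.22, 2.55 and 3.76 in WT and 3.66, 3.18 and 3.45 in Tg. Of the non-Hox genes named with it earlier, Tbx15 (mean 1.62), Shox2 (1.54) and En1 (1.13) were not above them. In the whole list of 23 depot position genes outside Hox, 14 were above them, Sfrp2 (6.64) among these.

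Between the genotypes, 0 of the 36 Hox genes passed an adjusted p of 0.05 in limma (smallest adjusted p 0.335), as did 0 of 41345 rows (0%). At an unadjusted p under 0.05 there were 4 genes, Hoxc8, Hoxb2 and Hoxc12 higher and Hoxd13 lower in Tg, or 11.1%, near the 10.3% of all rows (4.43% higher and 5.88% lower). The groups did not overlap in 5 genes, these 4 and Hoxc13, or 13.9%, against 16.7% of all rows (7.36% higher and 9.35% lower). Leaving out WT 1, WT 2 or Tg 2 gave 9, 10 or 11 such genes, where 31.2%, 25.3% and 27.6% of all rows then do not overlap. Tg read higher in 21 genes and lower in 15, with a median difference of 0.04 on the log2 scale, beside -0.01 over all rows and 0.0002 over all genes. Without Tg 2 that median was -0.03 and in WT 1, Tg 1 and Tg 3 alone -0.10. The median was -0.05 in Hoxa, 0.04 in Hoxb, 0.12 in Hoxc and -0.02 in Hoxd, and without WT 2 it was -0.22 in Hoxa and -0.02 in Hoxc. By position it was 0.04 for numbers 1 to 4, 0.05 for 5 to 8 and -0.03 for 9 to 13. With median centring the medians of Hoxa, Hoxd and numbers 9 to 13 took the other sign (0.017, 0.042 and 0.037), as did that of numbers 9 to 13 with quantile normalization (0.00064). Each of these 7 medians also took the other sign when some 1 array was left out, so none has a settled direction. In 24 of the 36 genes the difference was smaller than its SE. It exceeded its SE in the other 12, and in 19107 of all 41345 rows.

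**Figure D2:**
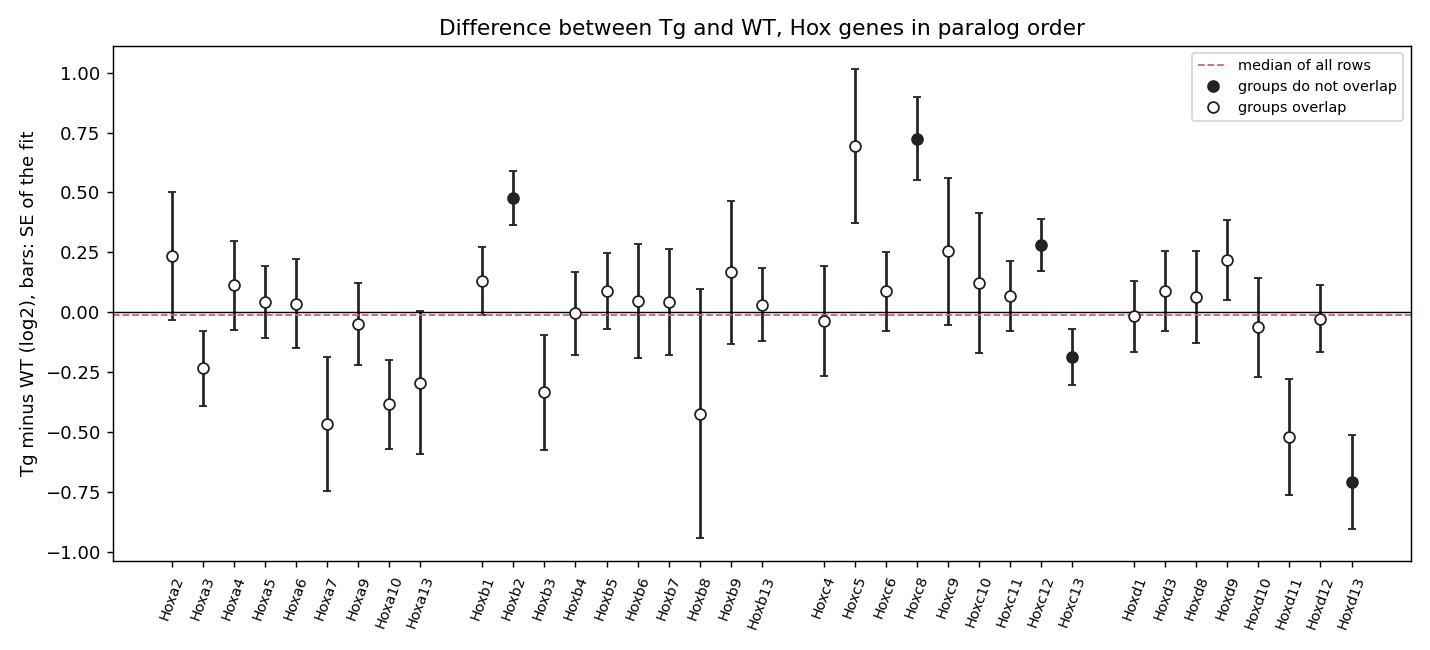
Difference Tg minus WT (log2, vertical axis) of each Hox gene, in paralog order by cluster (horizontal axis); bars are the SE of the limma fit and filled points mark genes whose 3 Tg arrays lie all above or all below the 3 WT arrays. Hoxc8 (0.72) and Hoxd13 (-0.71) lie at the ends, and the dashed line is the median of all rows (-0.01).

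Hoxc8, which specifies the trunk skeleton and forelimb motor neurons and is known to hold back brown fat genes in white fat progenitors, read 8.44, 8.40 and 8.12 in WT and 9.14, 8.73 and 9.27 in Tg. Every Tg value exceeded every WT value. The means were 8.32 ± 0.18 and 9.04 ± 0.28 (SD, n = 3), a difference of 0.72 ± 0.17 (SE) or 1.65-fold, with an adjusted p of 0.338 in limma. It was 0.76 in WT 1, Tg 1 and Tg 3, the arrays with the least of the chosen tract transcripts. Over all alternatives it was between 0.61 and 0.88. The lowest array of each group, WT 3 and Tg 2, was also the lowest of its group for the white adipocyte list; the part of fat cell content in the Hoxc8 difference was not tested.

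The rows of the genes beside Hoxc8, with the array values given above, overlapped between the groups for both Hoxc6 and Hoxc9. Within each array Hoxc8 read 2.12 to 2.31 above Hoxc6 in WT and 2.67 to 3.02 above it in Tg. As Hoxc8 has the widest difference of the 36 genes, this is a description with no test.

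Hoxc5, a cervical gene, split the Tg arrays. It read 2.89 and 2.73 in Tg 1 and Tg 3 but 1.67 in Tg 2, inside the WT range of 1.92, 1.66 and 1.63. The difference was 0.69 ± 0.32 with overlapping groups (adjusted p 0.522 in limma), and 1.07 without Tg 2. The low arrays were WT 2, WT 3 and Tg 2, those with the most of the chosen tract transcripts, as they were for Hoxc6. The part of the tract RNA was not tested.

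The posterior end of the cluster was dim. Hoxc12, one of the hair and hindlimb genes, read 1.41, 1.22 and 1.36 in WT and 1.56, 1.54 and 1.73 in Tg, a difference of 0.28 ± 0.11 with groups apart (adjusted p 0.461). Hoxc13 read 1.34, 1.32 and 1.22 in WT and 1.20, 0.91 and 1.20 in Tg, a difference of -0.19 ± 0.12 with groups apart (adjusted p 0.621), and of -0.093 without Tg 2 and -0.12 with median centring. Both lay below the 95th percentile of the receptor rows on all 6 arrays, and 8.61% of those rows also had groups that did not overlap. Hoxc10, known from hindlimb motor neurons, read 1.64 in WT 2 and 2.16 to 2.81 in the other 5 arrays, and Hoxc4 4.25 in Tg 1 and 4.63 to 5.07 in the others.

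In the Hoxb cluster the groups stood apart in Hoxb2 alone, a hindbrain gene. It read 1.74, 1.71 and 1.90 in WT and 2.11, 2.38 and 2.29 in Tg, close to the receptor rows' 95th percentile. The difference was 0.48 ± 0.11 (1.39-fold, adjusted p 0.335 in limma) and ranged from 0.42 to 0.55 over the alternatives. Its neighbour Hoxb3, a gene of the hindbrain and throat, read 3.42, 3.95 and 3.73 in WT and 3.08, 3.84 and 3.18 in Tg, with overlapping groups. The difference was -0.33 ± 0.24, and -0.57 without Tg 2, -0.21 without WT 2 and -0.19 without Tg 1. A brighter row that names both Hoxb2 and Hoxb3 read 4.08, 3.99 and 3.56 in WT and 4.06, 3.95 and 4.04 in Tg. The groups overlapped in that shared row, but as its strand is not known here, it does not settle the gap of the dim Hoxb2 row. Hoxb5 had a second, dim row, at 1.56 to 1.89 against 4.38 to 4.89 in its brighter row. In neither row did the difference reach its SE. Which strand is read by the shared row and by the second Hoxb5 row was not checked.

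Hoxb8, which acts in trunk patterning and in myeloid cells, varied most from array to array. It read 4.09 in Tg 2, 3.59 and 3.43 in WT 2 and WT 3, 2.98 in WT 1, 2.67 in Tg 1 and 1.97 in Tg 3, a range of 2.13. The 3 arrays with the most of the chosen tract transcripts were the 3 highest, within both genotypes. The same 3 arrays were the highest for Hoxb7 (3.66, 3.44 and 3.87 in WT 2, WT 3 and Tg 2 against 3.13 to 3.30), Hoxb3, the dim Hoxb1 and Hoxd11. They were the 3 lowest for Hoxc5 and Hoxc6, and were neither for the other 29 genes. The share of all rows in which these 3 arrays take such a place was not computed. The counts are therefore not read as a trait of the Hox genes. Emx2, a gene of the genital tract epithelium, read 3.02, 3.34 and 3.29 in these arrays and 1.93 to 2.22 in the others; the part of tract RNA in the Hox values was not tested. Hoxb9, a gene of the thorax and mammary gland, read 2.45 in Tg 1 and 2.87 to 3.65 elsewhere.

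**Figure D3:**
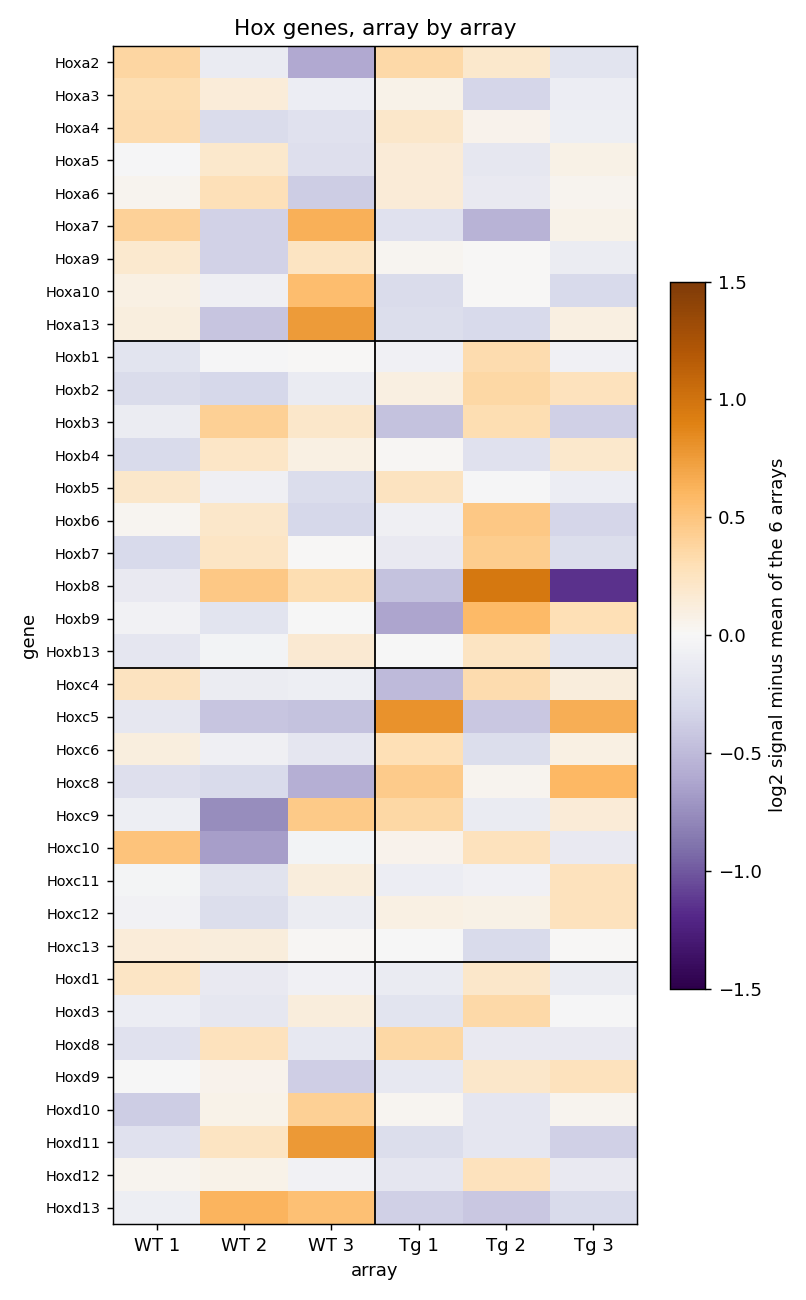
Log2 signal of each Hox gene minus its mean over the 6 arrays (colour scale), genes in rows by cluster and paralog number and arrays in columns; the vertical line parts WT from Tg and horizontal lines part the clusters. Hoxb8 is high in WT 2, WT 3 and Tg 2, Hoxc5 in Tg 1 and Tg 3, and Hoxd11 and Hoxd13 in WT 2 and WT 3.

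At the posterior end of the Hoxd cluster, Hoxd13, a gene of the digits and external genitalia, read 1.37, 2.06 and 1.99 in WT and 1.10, 1.03 and 1.16 in Tg. All Tg arrays were below all WT arrays, and within WT the arrays WT 2 and WT 3, which carried tract transcripts, were above WT 1. Tg 2, with the highest mean of the epididymis list, had the lowest Hoxd13 value of all 6 arrays, and the part of tract RNA was not tested. The difference was -0.71 ± 0.19 (1.63-fold lower, adjusted p 0.357 in limma). In WT 1, Tg 1 and Tg 3 alone it was -0.24, against 1 WT array. The WT mean of 1.81 ± 0.38 was at the receptor rows' 95th percentile. Hoxd12, next to it, showed no such gap (1.57, 1.59 and 1.48 in WT, 1.37, 1.79 and 1.40 in Tg).

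Hoxd11, a gene of the forearm, kidney and genital tract, read 1.29, 1.75 and 2.27 in WT and 1.26, 1.34 and 1.16 in Tg, so that WT 2 and WT 3 stood above the other 4 arrays. The difference was -0.52 ± 0.24 (adjusted p 0.522), -0.27 without WT 3 and -0.09 in WT 1, Tg 1 and Tg 3. Hoxd9, a gene of the lumbar region, read 0.22 ± 0.17 higher in Tg with overlapping groups. That difference was 0.34 without Tg 1, 0.14 without Tg 3, 0.086 without WT 3 and 0.071 in WT 1, Tg 1 and Tg 3. Hoxd10 read 2.57, 3.01 and 3.37 in WT and 2.98, 2.78 and 2.99 in Tg. Hoxd3, a neck vertebra gene, read 1.37 to 1.91 with overlapping groups.

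No Hoxa member had groups apart. A dim row that names both Hoxa11 and Hoxa11os, which the rule leaves out, did. It read 1.46, 1.40 and 1.52 in WT and 1.16, 1.24 and 0.98 in Tg (-0.33 ± 0.11, adjusted p 0.401 in limma). A second such row overlapped between the groups. Hoxa7, a trunk gene, read 4.80, 4.05 and 5.03 in WT and 4.17, 3.85 and 4.45 in Tg (-0.47 ± 0.28, adjusted p 0.610 in limma), and WT 2 lay among the Tg arrays; the difference was -0.75 without WT 2 and -0.27 without WT 3. A row that names both Hoxa7 and Mira read 4.49, 4.56 and 4.39 in WT and 4.63, 4.26 and 4.48 in Tg, with overlapping groups. Hoxa10, a gene of the genital ducts and pelvis, read 1.41, 1.25 and 1.88 in WT and 1.05, 1.32 and 1.02 in Tg (-0.38 ± 0.19, adjusted p 0.535), dim in every array except WT 3, and without WT 3 the difference was -0.20. Hoxa3, a gene of the throat and thymus, differed by -0.23 ± 0.16, and by -0.14 without WT 1 and -0.13 without Tg 2. Hoxa13, a gene of the hands, feet and urogenital tract, read 2.26 in WT 3 and 1.08 to 1.62 in the other 5 arrays. Hoxa2, a gene of the jaw arches, spanned 3.40 to 4.37, Hoxa4 3.84 to 4.44 and Hoxa9, known from blood stem cells, 1.37 to 1.95, each with overlapping groups.

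**Figure D4:**
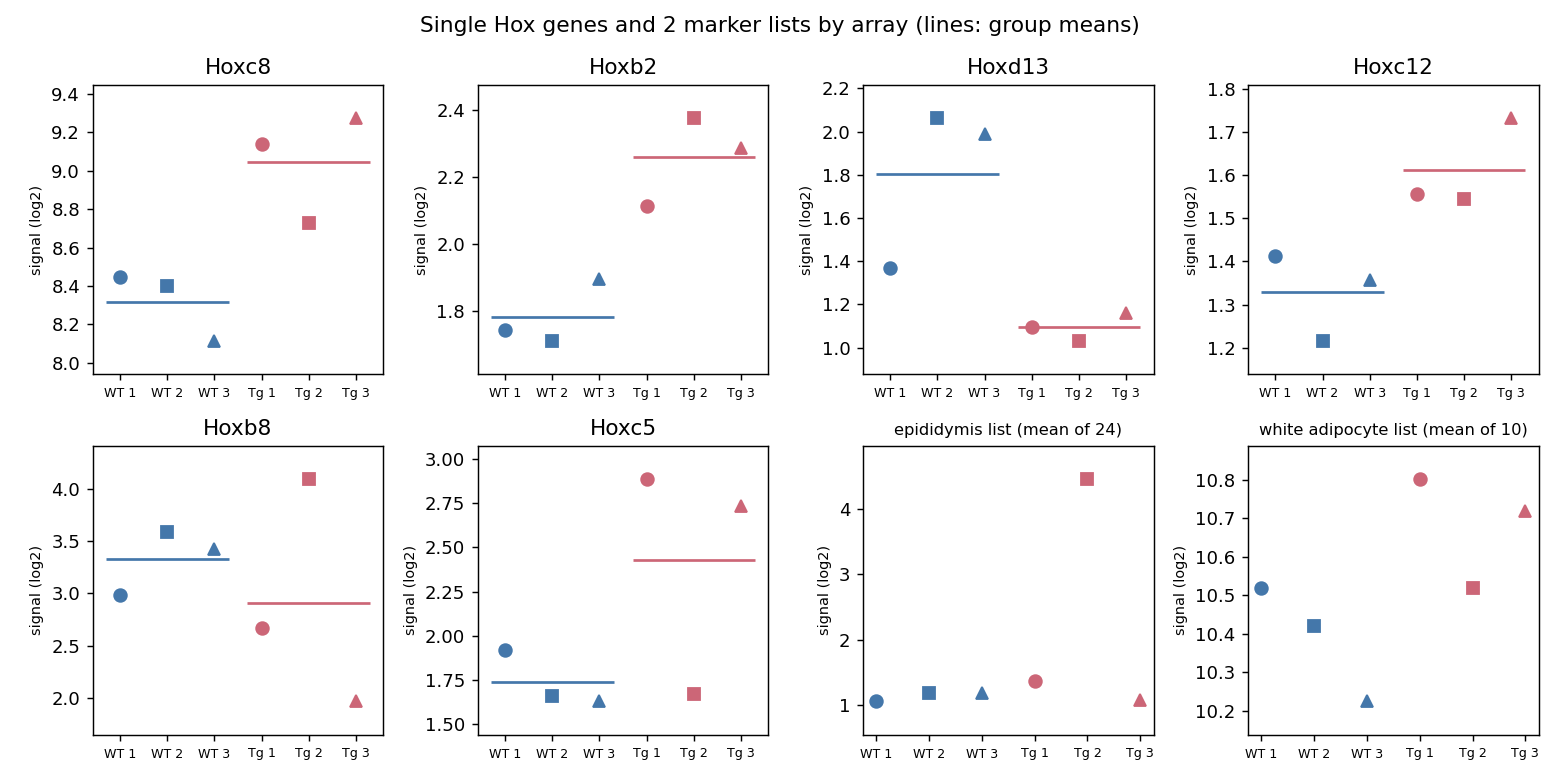
Signal (log2, vertical axes, each with its own range) by array (horizontal axes) for Hoxc8, Hoxb2, Hoxd13, Hoxc12, Hoxb8 and Hoxc5, and the mean signal of the epididymis and white adipocyte lists; WT in blue, Tg in red, and lines in the gene panels are group means. Groups do not overlap in the panels of Hoxc8, Hoxb2, Hoxd13 and Hoxc12, while Hoxb8 is highest in Tg 2 (4.09), where the epididymis list averages 4.45.

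HOX proteins bind DNA together with cofactors of the TALE family, and their genes are kept off or on by Polycomb and Trithorax proteins. Of 8 measured cofactor genes 0 had an unadjusted p under 0.05 and 3 read higher in Tg (median -0.03). Meis1 had the smallest p, at -0.19 ± 0.14, was at -0.30 without WT 1 and -0.12 without WT 3 or with median centring, and had the other sign (0.08) in WT 1, Tg 1 and Tg 3. Of 18 Polycomb and Trithorax genes 0 passed the adjusted threshold in limma, with 1 higher and 1 lower at an unadjusted p under 0.05 (median -0.03), or 11.1% beside 10.3% of all rows. Kdm6b, a demethylase that removes the Polycomb mark, read 7.69, 7.50 and 7.28 in WT and 7.79, 7.89 and 7.82 in Tg (0.34 ± 0.13, and 0.11 in WT 1, Tg 1 and Tg 3). Kmt2a, the methyltransferase gene that keeps Hox genes on, read 7.21, 7.12 and 7.23 in WT and 6.93, 7.01 and 6.91 in Tg (-0.24 ± 0.09). The groups did not overlap in either gene.

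Retinoic acid, CDX factors and GDF11 set Hox expression in the embryo. Of 14 such genes 1 had an unadjusted p under 0.05 (7.14%, beside 10.3% of all rows) and 8 read higher in Tg (median 0.09). It was Aldh1a1, a retinoic acid synthesis gene, at 9.04, 8.85 and 8.81 in WT and 9.32, 9.28 and 9.31 in Tg (0.41 ± 0.10, adjusted p 0.346 in limma). Of 23 genes of depot position outside the Hox family, 3 had an unadjusted p under 0.05, all higher in Tg (13.04%, beside 4.43% of all rows higher and 10.3% either way), while the median was -0.03 and 11 read higher. Gpc4, a glypican gene known to differ between fat depots, read 5.91, 5.91 and 5.60 in WT and 6.54, 6.13 and 6.43 in Tg (0.56 ± 0.15, adjusted p 0.354). Tcf21, a transcription factor gene of visceral fat progenitors, differed by 0.31 ± 0.12 with groups apart, and by 0.14 in WT 1, Tg 1 and Tg 3. Bmp3 differed by 0.55 ± 0.21 with overlapping groups, and by 0.04 in those 3 arrays.

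Inside the clusters, 10 of 22 listed noncoding and non-Hox genes had a row of their own, and 2 had an unadjusted p under 0.05 (20%, beside 10.3% of all rows). Hoxd3os1, annotated as a transcript opposite Hoxd3, read 2.68, 2.12 and 1.92 in WT and 3.37, 2.86 and 2.88 in Tg, with groups apart (0.80 ± 0.24, adjusted p 0.381 in limma), and 0.44 in WT 1, Tg 1 and Tg 3. The dim row of Hoxd3 overlapped between the groups. The brighter row naming Hoxd3 and Hoxd4 read 3.55, 3.71 and 3.87 in WT and 3.97, 3.84 and 4.03 in Tg (0.24 ± 0.12, adjusted p 0.553 in limma), where Tg 2 alone lay inside the WT range. Mir196a-1, whose mature sequence is the miR-196a-5p shown above, read 1.76, 2.25 and 2.01 in WT and 1.63, 1.51 and 1.68 in Tg (-0.40 ± 0.15, adjusted p 0.448), and -0.10 in WT 1, Tg 1 and Tg 3. The row reads RNA of the gene and not the mature microRNA, as far as the sources used here tell, and it is dim. Mir196a-2, which gives the same mature sequence, averaged 0.78, and Hotair, the lncRNA of the posterior Hoxc cluster, 1.13 to 1.73, both overlapping between the groups.

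Of 15 measured genes that flank the clusters, 3 had an unadjusted p under 0.05 (20%, beside 10.3% of all rows) and 7 had groups apart (46.7%, beside 16.7%). Most of these genes are bright, 13 of the 15 above the median of all rows. Among the 20959 rows left after dim rows were filtered out, 22.1% had groups apart. Calcoco1, outside the Hoxc cluster, was at 9.28, 9.23 and 9.06 in WT and 9.46, 9.56 and 9.51 in Tg (0.32 ± 0.10, and 0.21 in WT 1, Tg 1 and Tg 3). Hibadh, an enzyme gene of valine breakdown beyond the Hoxa cluster, differed by 0.31 ± 0.12. Skap2, an adaptor gene of immune cells at the anterior end of the Hoxa cluster, differed by -0.34 ± 0.12, and by -0.17 in those 3 arrays. None passed after adjustment, the smallest adjusted p being 0.402 in limma.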

How the data were processed

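The 6 arrays measured biotin-labelled cDNA from 400 ng of total RNA, per the labels' protocols. The authors deposited log2 signals, 1 per array and row, with array medians from 2.64 to 2.75. RMA (background correction, normalization across arrays and a summary per probe set) and limma were used, per the submitters' processing notes. The sources used here give neither versions, settings nor a genome build. RMA compresses differences between low values. Of 41345 rows, 23521 named 1 gene by the platform annotation.

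The 2-sided comparison of Tg with WT was fitted by lmFit and eBayes of limma 3.58.1 (R 4.3.3) over every row, with no covariate or filter, with Benjamini-Hochberg adjustment over all rows and a threshold of 0.05. The procedure was tested on simulated data. Differences are Tg minus WT (log2) with the SE of the fit, and "apart" means that all 3 Tg arrays lie on 1 side of all 3 WT arrays. Members, lists and the rule for named genes were chosen with earlier results of these data known. The rule gave in full the members with an unadjusted p under 0.05 or groups apart and the highest and lowest of each cluster; other genes with array values were chosen after these were seen. Differences are printed for members beyond their SE. P-values set the difference against the spread of the arrays within the groups, which eBayes moderates with the spread of all rows. From each list of Hox-related genes up to 4 genes with an unadjusted p under 0.05, or else the smallest p, were named. Marker lists of adipose progenitors, mesothelium, brown fat and skeletal muscle had median differences of -0.06, 0.11, 0.13 and 0.13, with Ucp1 alone at an unadjusted p under 0.05. Rows that name several genes, 1 of them a Hox gene, entered no count of members. Gene order and sequences came from RefSeq tables of GRCm38.p6. The 16 alternatives left out each array, used WT 1, Tg 1 and Tg 3, added a replicate block, renormalized in 3 ways, filtered dim rows, kept single-gene rows, used a trended robust variance, gave arrays weights or averaged a gene's rows. The number of arrays limits the precision.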

Additional observations from a re-analysis of the deposited data

How the results depend on the processing

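Under all 16 alternatives 0 Hox genes and 0 rows passed the threshold in limma. The number of Hox genes at an unadjusted p under 0.05 was 4 as reported, 3 to 6 when 1 array was left out and 1 with the filter on dim rows, which kept 19 of the 36 genes. The number with groups apart was 5 as reported, 5 to 11 when 1 array was left out, 1 with that filter and 28 with WT 1, Tg 1 and Tg 3 alone, where 67.7% of all rows are apart because few arrays remain. The median difference of 0.04 ranged from -0.030 to 0.063 when 1 array was left out, and was -0.10 in WT 1, Tg 1 and Tg 3, 0.11 with median centring, 0.082 with cyclic loess and 0.10 with quantile normalization. Relative to the median of all rows, which centring moved from -0.01 to 0.05, the Hox median was 0.06 as reported and with centring and was 0.09 with loess and with quantile. Of the 12 Hox genes whose difference exceeded its SE, 0 had another sign under any alternative. These genes were picked by the size of their difference in the same data. The block, the filter, the single-gene rows, the trended variance and the averaged rows left their differences unchanged, so no sign could turn there. Among the other single-gene differences recomputed, Meis1 alone took another sign, at 0.082 in WT 1, Tg 1 and Tg 3, and the cause was not tested. The share of rows at an unadjusted p under 0.05 that read higher in Tg was 43.0% as deposited, 64.7% with median centring and 54.4% with quantile normalization. For the Hox genes that split was 3 higher and 1 lower in all 3. With a replicate block 5 Hox genes had an unadjusted p under 0.05 and 0 passed. Deviations of arrays with the same number correlated at -0.038, 0.0073 and -0.043 over all rows, and no WT array correlated best with the Tg array of its number, so the numbers were not taken to pair the mice.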
